A study of Mus musculus with 6 samples.

Results

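The AP-1 and BATF factors are basic leucine zipper (bZIP) transcription factors, and 9 of their genes were examined here: *Fos*, *Fosb*, *Fosl1*, *Fosl2*, *Jun*, *Junb*, *Jund*, *Batf* and *Batf3*. They were picked by gene symbol from the 55421 genes of an RNA-seq table, and each symbol matched 1 row. The table covers activated splenic B cells of 3 control mice (WT, *CD21-cre* with *Rosa mT/mG*) and 3 hnRNPL-deficient mice, which carried *Hnrnpl F/F* in addition. The mice were C57BL6/J males and females over 6 weeks of age, with 1 library per mouse. B cells were cultured for 24 h with 5 μg/ml of LPS plus 5 ng/ml of IL-4, and GFP+ cells were sorted. Both groups thus carried the *CD21-cre* transgene and the reporter allele, which turns on GFP where Cre has acted. *CD21-cre* acts mostly in peripheral B cells but also in other tissues, so the mice are not a B cell-only model, and only cells that survived to 24 h could be sorted.

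AP-1 is a dimer. JUN proteins pair with each other or with a FOS protein, whereas FOS proteins need a JUN partner to bind DNA. *Fos*, *Fosb* and *Junb* are immediate early genes that growth factor, antigen receptor and Toll-like receptor signals switch on briefly through MAP kinases. BATF also pairs with JUN proteins, and in lymphocytes such pairs bind DNA together with IRF4 or IRF8. In activated B cells BATF is needed for class switch recombination.

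The targeted gene, *Hnrnpl*, stood at 24174 to 25580 normalized counts in WT and at 1297 to 2178 in hnRNPL-deficient libraries, where its mean was 6.74% of that of WT. Libraries held 40395186 to 75180749 reads on genes, and the hnRNPL-deficient library 3 was the shallowest. All values are normalized counts, that is, reads divided by the authors' size factor of the library. *Xist* was high in 1 library of each group, WT library 3 and hnRNPL-deficient library 2. The 7 listed B cell markers summed to between 287559 and 365386 normalized counts in every library, as the label of activated B cells says. Of 6 T cell markers, 5 were under 10 normalized counts in all libraries.

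Of the 9 members, *Fosb* was the one whose transcript changed by the thresholds of the study, an adjusted p under 0.1 and at least 1.5-fold. It was lower in hnRNPL-deficient cells, a call that was lost in 3 of the 6 analyses that left out a library. *Batf* also passed the adjusted p and had a lower fitted level by less than 1.5-fold. The other 6 tested members did not pass, and *Batf3* was too low to test. Across 17640 tested genes, whose mean was 10 normalized counts or more, 7.28% were called higher and 4.08% lower. Among the 8 tested members 0 were called higher and 1 was called lower. At the adjusted p alone, 10.0% of all genes were higher and 7.97% lower, against 0 and 2 of the 8 members. At an unadjusted p under 0.05 by limma 0 members were higher and 2 lower, again *Fosb* and *Batf*. The log2 fold change was negative for 7 of the 8, with a median of -0.38, against -0.03 for all genes tested. The shares of all genes under that p, or with a negative value, were not counted, so no excess of members is read from these counts. In RNA from a sorted population, fewer cells with a transcript and less of it per cell cannot be told apart.

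**Figure D1:**
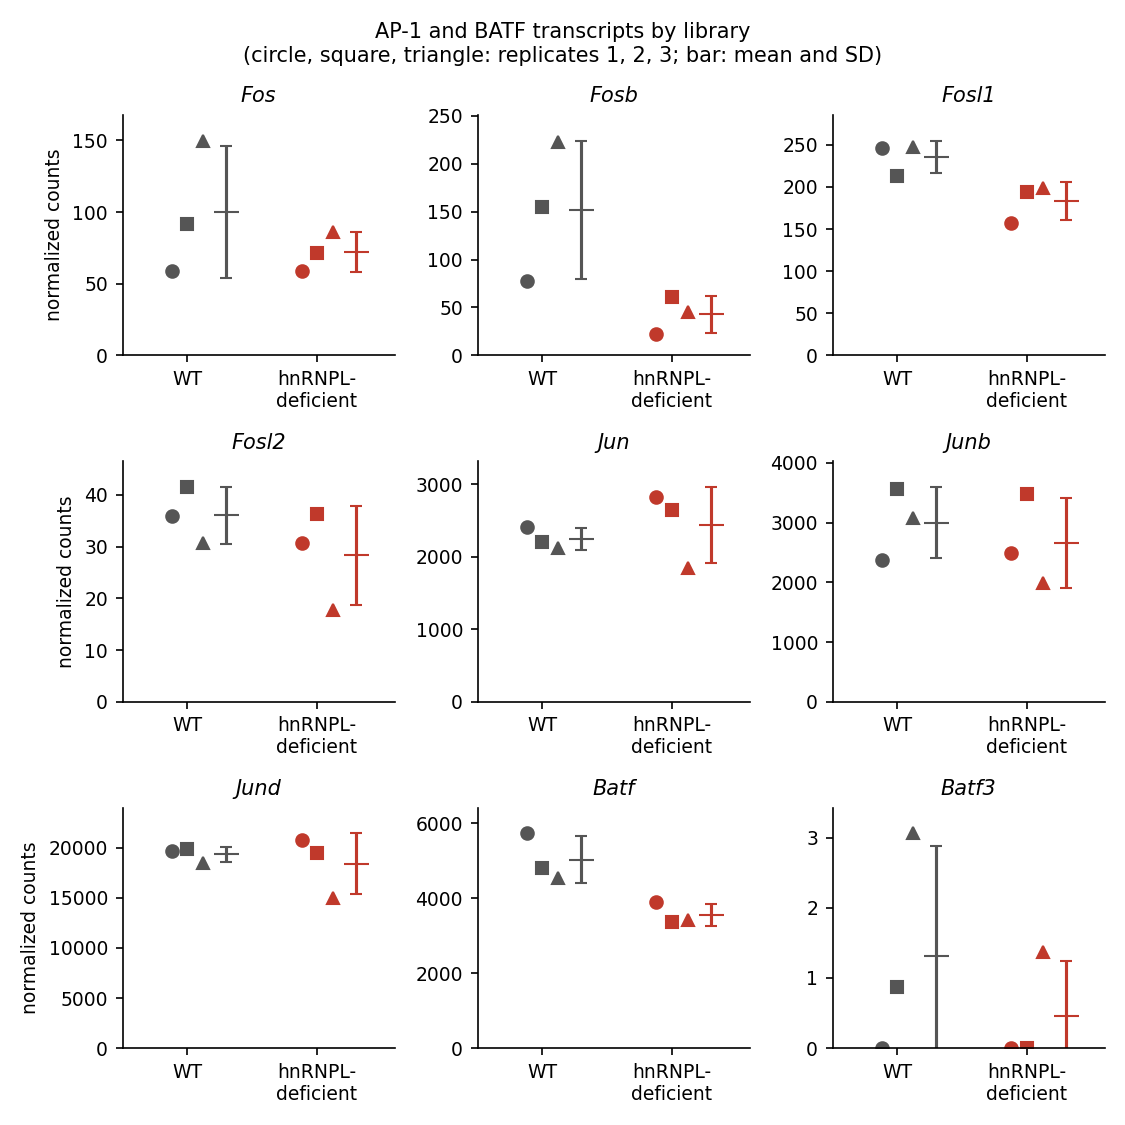
Normalized counts (vertical axes, linear from 0, a scale for each gene) of the 9 members in 3 WT (grey) and 3 hnRNPL-deficient (red) libraries, with a symbol for each replicate number and the mean with its SD beside the points. The groups do not overlap for *Fosb*, *Fosl1* and *Batf*.

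*Fosb* encodes FosB, a FOS protein that activates transcription with a JUN partner. *Fosb* (ENSMUSG00000003545.3, chromosome 7, 19302696 to 19310051 on the minus strand in GRCm38, with 3 to 5 exons in its annotated transcripts) had 77.8, 154.8 and 222.5 normalized counts in WT libraries 1, 2 and 3. It had 22.5, 60.6 and 45.2 in hnRNPL-deficient libraries 1, 2 and 3. Every hnRNPL-deficient library was below every WT library, but the WT libraries themselves spread widely. The mean fell from 151.7 ± 72.4 to 42.8 ± 19.1 (SD, n = 3 mice each). The log2 fold change was -1.78 (standard error, SE, 0.466, 95% interval -2.85 to -0.72, adjusted p = 0.0430 by limma), a fitted 3.45-fold decrease. The reads behind these values were few, from 25 in hnRNPL-deficient library 1 (95% Poisson interval 16.2 to 36.9) to 291 in WT library 3 (259 to 326). Such intervals cover counting error only.

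The decrease of *Fosb* kept its sign in all 17 alternative analyses and its call in 14 of them. The call was lost without WT library 2 (log2 fold change -1.71, adjusted p = 0.115 by limma), without WT library 3 (-1.45, adjusted p = 0.152) and without hnRNPL-deficient library 1 (-1.39, adjusted p = 0.101). Over all alternatives the adjusted p of *Fosb* ranged from 8.14e-04 to 0.152 by limma, edgeR or DESeq2. *Fosb* lies 9.50 Mb from *Hnrnpl* on chromosome 7. Of the 281 tested genes within 10 Mb of *Hnrnpl*, *Fosb* itself among them, 5.69% were called lower and 8.19% higher, against 4.08% and 7.28% of all genes. The part of this position in the lower *Fosb* level was not tested.

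The upstream sequences of *Fosb* and *Fos* are shown because these paralogous early genes are known to respond to the same kind of signal, while *Fosb* was called and *Fos* was not. They are the 250 bases before the RefSeq transcript start in GRCm38.p6, written 5′ to 3′ on the strand of the gene. Capitals mark the letters TGACG, the core of the cAMP response element (CRE) that CREB and ATF proteins bind, and TATAA, the core of a TATA box.
*Fosb* (chr7:19310046-19310295, minus strand): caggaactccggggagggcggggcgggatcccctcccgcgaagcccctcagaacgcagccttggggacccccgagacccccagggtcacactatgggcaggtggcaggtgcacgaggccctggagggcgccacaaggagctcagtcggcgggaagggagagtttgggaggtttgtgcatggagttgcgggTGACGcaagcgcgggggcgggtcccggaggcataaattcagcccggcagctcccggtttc
*Fos* (chr12:85473640-85473889, plus strand): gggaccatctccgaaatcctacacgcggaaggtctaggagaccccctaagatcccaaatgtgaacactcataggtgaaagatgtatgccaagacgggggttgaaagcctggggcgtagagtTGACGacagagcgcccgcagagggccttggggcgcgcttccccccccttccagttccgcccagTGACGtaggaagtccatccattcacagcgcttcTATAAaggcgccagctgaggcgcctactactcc

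The letters TGACG began 60 bases before the start of *Fosb*, and 129 and 66 bases before the start of *Fos*. The letters TATAA stood 33 bases before the start of *Fos*. Of the 9 members 8 were matched by symbol in the RefSeq promoter table, all but *Fosl1*. On either strand, TGACG was found in 4 of these 8 windows (*Fosb*, *Fos*, *Junb* and *Batf*) and in 17.8% of all 32851 windows, and TATAA in 1 of 8 (*Fos*) and 22.8% of all. The AP-1 site TGANTCA was in 0 of the 8 windows and 6.75% of all, and the full CRE, TGACGTCA, which contains TGACG, in 0 and 1.55%. The CArG box, which serum response factor binds, was in 0 of the 8 and 1.47% of all. Only exact letters in 250 bases per window were searched, so variant sites, and sites farther upstream, of this or any other motif, would be missed. For example, the *Jun* window holds tgacatca, which counts neither as the AP-1 site nor as the full CRE. The *Fosb* window holds cataaa, which does not count as TATAA. The RefSeq window of *Jund* lies upstream of the gene start in GENCODE, so it is not the window of the single-exon transcript described below. The windows of *Fosl2* and *Batf3* lie inside the GENCODE gene, and those of *Batf* and *Fosb* run past its start. These matches describe letters in a window, and no binding was measured.

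Of the other FOS genes, none was called. *Fos* encodes c-Fos, the founding member of the family. *Fos* (ENSMUSG00000021250.13, chromosome 12, 85473890 to 85477273, plus strand, 4 exons) had 59.2, 91.6 and 149.9 normalized counts in WT and 58.6, 71.7 and 86.4 in hnRNPL-deficient libraries. The hnRNPL-deficient values lay within or just below the WT range, and the WT values spread more. Its log2 fold change was -0.38 (SE 0.353, adjusted p = 0.520 by limma), and its 95% interval ran from 0.438-fold to 1.34-fold of WT. Its fitted log2 change was -0.71 without WT library 1 and -0.05 without WT library 3, the ends of its range over the libraries left out. WT library 3 had the highest and WT library 1 the lowest value of both *Fos* and *Fosb* in the WT group. Whether the change of *Fosb* differed from that of *Fos* was not tested.

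*Fosl1* encodes Fra-1 and *Fosl2* Fra-2, FOS proteins that lack the strong activation domain of c-Fos. *Fosl1* (ENSMUSG00000024912.6, chromosome 19, 5447547 to 5455946, plus strand, 3 to 4 exons) had 246.0, 213.6 and 247.8 normalized counts in WT and 156.9, 193.9 and 198.7 in hnRNPL-deficient libraries. The groups of *Fosl1* did not overlap, and the tightest gap was between WT library 2 and hnRNPL-deficient library 3. Its log2 fold change was -0.37 (SE 0.182, 95% interval -0.78 to 0.05, adjusted p = 0.234 by limma), so it did not pass. *Fosl2* (ENSMUSG00000029135.10, chromosome 5, 32135801 to 32157842, plus strand, 4 exons) had 36.0, 41.5 and 30.6 normalized counts in WT and 30.7, 36.3 and 17.8 in hnRNPL-deficient libraries. These ranges overlapped, and the lowest value rested on 13 reads (95% Poisson interval 6.92 to 22.2) in the shallowest library. The log2 fold change of *Fosl2* was -0.39 (SE 0.351, adjusted p = 0.515 by limma), with an interval from 0.440-fold to 1.33-fold of WT. Its fitted log2 change ranged from -0.59 without hnRNPL-deficient library 2 to -0.10 without hnRNPL-deficient library 3.

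The 3 JUN genes, each transcribed from a single exon, did not pass the test in either direction. *Jun* (ENSMUSG00000052684.4, chromosome 4, 95049034 to 95052222, minus strand) encodes c-Jun, the main activating JUN protein. It had 2411.5, 2201.3 and 2116.8 normalized counts in WT and 2823.6, 2651.3 and 1842.1 in hnRNPL-deficient libraries. The hnRNPL-deficient values of *Jun* lay on both sides of the WT range. Its log2 fold change was 0.10 (SE 0.163, adjusted p = 0.733 by limma), the only positive one among the tested members, and it turned to -0.02 without hnRNPL-deficient library 1. The antisense gene *Junos* had 13.9 to 33.7 normalized counts over all libraries, and reads were counted by strand.

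*Junb* (ENSMUSG00000052837.6, chromosome 8, 84974484 to 84978718, minus strand) encodes JunB, a weaker activator than c-Jun and a usual partner of BATF. It had 2372.1, 3560.5 and 3070.4 normalized counts in WT and 2497.3, 3477.2 and 1991.5 in hnRNPL-deficient libraries, and the ranges overlapped nearly throughout. For *Junb* the log2 fold change was -0.19 (SE 0.216, adjusted p = 0.598 by limma), with an interval from 0.621-fold to 1.23-fold of WT. Its fitted log2 change ranged from -0.41 without hnRNPL-deficient library 2 to -0.01 without hnRNPL-deficient library 3. *Jund* (ENSMUSG00000071076.6, chromosome 8, 70698949 to 70700616, plus strand) encodes JunD, the JUN protein made most evenly in resting and dividing cells. It had 19676.5, 19881.8 and 18433.9 normalized counts in WT and 20749.9, 19472.0 and 14955.1 in hnRNPL-deficient libraries. The shallowest library, hnRNPL-deficient library 3, was below the other 5, and the log2 fold change of -0.09 (SE 0.131, adjusted p = 0.712 by limma) turned to 0.06 without it and to 0.08 with quantile normalization. The interval of *Jund* was the narrowest after that of *Batf*, from 0.766-fold to 1.16-fold of WT. The same library was the lowest for *Fosl2*, *Jun*, *Junb* and *Jund*.

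*Batf* (ENSMUSG00000034266.6, chromosome 12, 85686669 to 85709087, plus strand, 3 exons) had 5727.1, 4812.5 and 4535.6 normalized counts in WT libraries and 3886.6, 3360.1 and 3421.1 in hnRNPL-deficient libraries. All hnRNPL-deficient libraries were below all WT libraries. The mean fell from 5025 ± 623.6 to 3556 ± 288.0 (SD, n = 3 mice each), that is, to 70.8% of WT. The log2 fold change was -0.49 (SE 0.118, 95% interval -0.76 to -0.23, adjusted p = 0.0318 by limma), a fitted 1.41-fold decrease, which is short of the 1.5-fold threshold. The adjusted p of *Batf* stayed between 0.00482 and 0.0945 over its 17 alternatives, and leaving out single libraries moved its log2 fold change from -0.57 to -0.40 at most. *Batf3*, a related factor best known from dendritic cells, was listed at 0, 0.865 and 3.06 normalized counts in WT and at 0, 0 and 1.37 in hnRNPL-deficient libraries. In the 5 libraries with recovered reads *Batf3* had at most 4 reads, and no change was detectable at this depth. *Batf3* (ENSMUSG00000026630.9) lies on chromosome 1, 191097847 to 191108945, plus strand.

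For 3 of the 8 tested members (*Fosb*, *Fosl1* and *Batf*) the groups did not overlap, which was so for 34.0% of all tested genes. An exact two-sided permutation test of a single member gave p = 0.1 for these 3 members, the smallest that 3 against 3 mice allow. In the plot of fitted changes the intervals of *Fosb* and *Batf* lie wholly below 0.

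**Figure D2:**
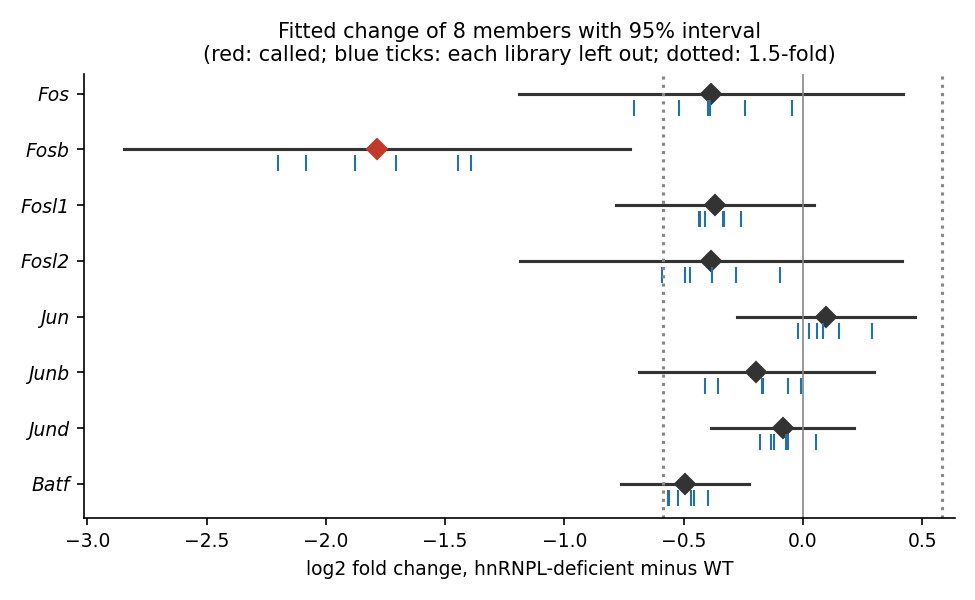
Log2 fold change (horizontal axis, hnRNPL-deficient minus WT, on the log2(normalized count + 1) scale) of the 8 tested members, as diamonds with 95% intervals by limma. Blue ticks show the value with each library left out, red marks the called gene, and dotted lines mark 1.5-fold. *Fosb* ranges from -2.20 to -1.39 over the ticks, and the ticks of *Jun* and *Jund* fall on both sides of 0.

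Levels of different genes were compared per kilobase of exon, with normalized counts divided by the length of the merged exons. *Jund* was the most abundant member, at 11589 ± 470 normalized counts per kilobase in WT (SD, n = 3), followed by *Batf* at 3574 ± 443, *Junb* at 1304 ± 260 and *Jun* at 703 ± 47.6. The FOS genes were far lower, with *Fosl1* at 116 ± 9.48, *Fos* at 42.6 ± 19.5, *Fosb* at 24.3 ± 11.6 and *Fosl2* at 3.72 ± 0.564. *Batf3* came last, at 0.819 ± 0.987. In WT only *Fos* and *Fosb* were neighbours whose ranges overlapped. The hnRNPL-deficient libraries gave the same order of means. There *Junb* (866 to 1511 normalized counts per kilobase) overlapped *Jun* (578 to 885), and *Fosb* (3.61 to 9.70) overlapped *Fosl2* (1.84 to 3.75), whereas *Fos* (24.9 to 36.7) no longer overlapped *Fosb*. Uneven coverage and the isoform in use can change the effective length, which was not measured.

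**Figure D3:**
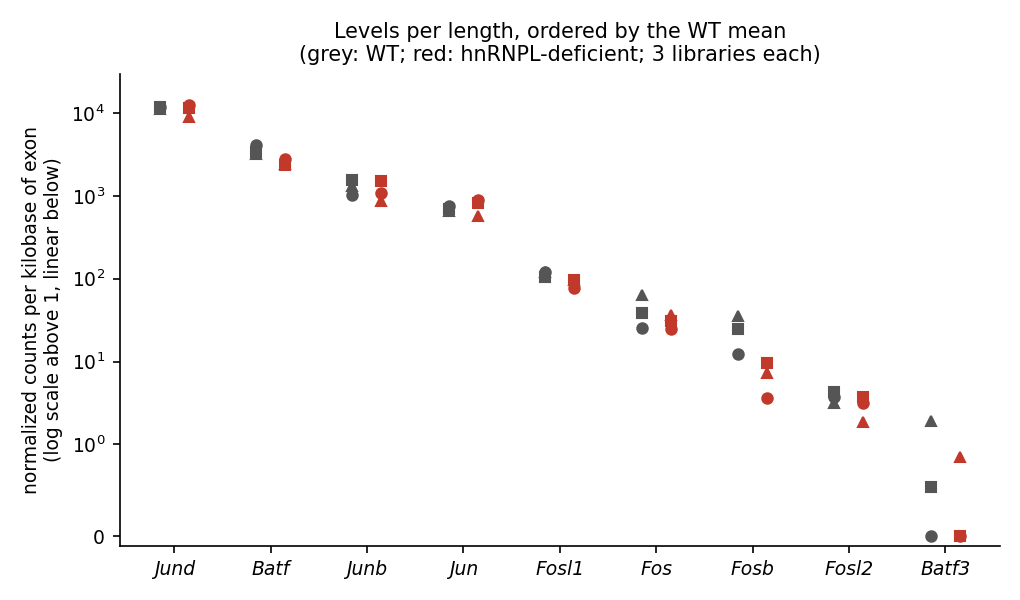
Normalized counts per kilobase of merged exon (vertical axis, log scale above 1 and linear below) of the 9 members, ordered by the WT mean, in 3 WT (grey) and 3 hnRNPL-deficient (red) libraries. JUN genes and *Batf* lie at 578 or more in every library and the other members at 122 or less.

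Summed per kilobase over all 9 members, the JUN genes made up 78.4 ± 1.87% of the WT total and 82.7 ± 2.35% of the hnRNPL-deficient total (SD, n = 3). *Jund* alone made up 66.8 ± 0.50% and 70.5 ± 1.47%. The BATF genes made up 20.6 ± 1.99% in WT and 16.4 ± 2.18% in hnRNPL-deficient cells, and the FOS genes 1.08 ± 0.243% and 0.859 ± 0.238%. Nearly all AP-1 and BATF transcript was thus from *Jund*, *Batf*, *Junb* and *Jun* in both groups. Within the FOS sum, *Fosb* made up 7.67%, 14.3% and 15.9% in WT libraries 1, 2 and 3 and 3.32%, 6.97% and 5.05% in hnRNPL-deficient libraries. *Fosl1* was the largest FOS transcript in every library, at 63.2 ± 10.3% of the FOS sum in WT and 69.1 ± 1.52% in hnRNPL-deficient cells. These shares are descriptions and were not tested. They concern RNA, and protein was not measured.

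Several of these genes have bZIP neighbours. *Fos*, *Jdp2* and *Batf* lie in a row on chromosome 12, with 121.8 kb between *Fos* and *Jdp2* and 46.8 kb between *Jdp2* and *Batf*. The 3 neighbours had different values, namely no call for *Fos*, a lower level of *Batf* under 1.5-fold, and a called rise of *Jdp2*, which encodes a repressor that pairs with JUN proteins. *Jdp2* was low, with 3.48, 13.0 and 19.9 normalized counts in WT and 45.1, 43.4 and 26.0 in hnRNPL-deficient libraries (log2 fold change 1.80, SE 0.575, adjusted p = 0.0814 by limma). The call of *Jdp2* was kept in 7 of 16 alternatives and lost in 5 of the 6 that left out a library (all but WT library 3). *Batf3* and *Atf3* are 61.4 kb apart on chromosome 1. *Atf3*, a stress-induced bZIP gene, had 729, 750 and 639 normalized counts in WT and 472, 326 and 472 in hnRNPL-deficient libraries, and fell (log2 fold change -0.75, SE 0.178, adjusted p = 0.0309 by limma). Its call was lost without WT library 2 or hnRNPL-deficient library 2 and in both count tests, edgeR and DESeq2, on 5 libraries, and the log2 fold change was -0.84 to -0.58 over the libraries left out. Of the 14 listed related bZIP genes 11 were tested, 1 was called higher and 2 lower. The other lower gene was *Maff*, a small MAF protein gene (log2 fold change -0.69, adjusted p = 0.0981 by limma), whose call was kept in 6 of 17 alternatives and lost whichever library was left out. The partners of BATF, *Irf4* (17170 to 25350 normalized counts over all libraries, log2 fold change -0.06, adjusted p = 0.839) and *Irf8* (18849 to 26285, 0.14, adjusted p = 0.503), did not pass by limma.

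The other genes of the pathway were described by lists of 83 genes in all, of which 72 were tested, 11 were called higher and 6 lower, against 7.28% and 4.08% of all genes. At the adjusted p alone 15 had a positive and 13 a negative change, against 10.0% and 7.97% of all genes. Of the 17 calls 7 were kept whichever library was left out, those of *Dusp5*, *Dusp6*, *Dusp8*, *Il6*, *Csf2*, *Ptgs2* and *Il10*. The count of lower genes was 3 without WT library 2 and 3 without WT library 3. Upstream of AP-1, 19 MAP kinase and MAP kinase kinase genes were tested, with 1 higher and 1 lower. *Map2k6*, an activator of p38, had a log2 fold change of 0.66 (adjusted p = 0.0568 by limma), which was not called without WT library 2 or 3 or hnRNPL-deficient library 1 or 2, nor with quantile normalization. *Mapk12*, which encodes p38 gamma, fell (-0.86, adjusted p = 0.0260), and its call was lost without WT library 3. Of 6 genes of serum response factor and its partners, which bind the CArG box and adjacent ETS site of early genes, none was called. *Srf* itself passed the adjusted p below 1.5-fold, with 4588, 4486 and 4864 normalized counts in WT and 3567, 3762 and 3435 in hnRNPL-deficient libraries (log2 fold change -0.37, adjusted p = 0.0344 by limma). *Elk3* of that list also passed below 1.5-fold (-0.49, adjusted p = 0.0700 by limma).

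The dual-specificity phosphatases, which switch MAP kinases off, had 3 of 9 tested genes called higher and 0 lower, against 7.28% and 4.08% of all genes. Their median log2 fold change was 0.37, against -0.03 for all genes. *Dusp6*, an ERK phosphatase, rose from 466 ± 43.1 to 1178 ± 117 normalized counts (SD, n = 3; log2 fold change 1.34, SE 0.135, adjusted p = 0.00105 by limma). *Dusp5*, a nuclear ERK phosphatase, rose from 606 ± 34.4 to 1107 ± 137 (0.86, SE 0.134, adjusted p = 0.00613). *Dusp8* was near the detection floor in WT (8.12, 3.46 and 2.29 normalized counts) and stood at 32.5, 31.3 and 32.9 in hnRNPL-deficient libraries (a fitted 6.49-fold rise, SE 0.457 on the log2 scale, adjusted p = 0.00855 by limma). All WT libraries were below all hnRNPL-deficient libraries for these 3 genes. *Dusp4* (0.52, adjusted p = 0.0341) and *Dusp16* (0.37, adjusted p = 0.0587) passed the adjusted p by limma below 1.5-fold. *Dusp1* (-0.33), *Dusp2* (-0.16) and *Dusp7* (-0.22) had negative values and *Dusp10* (0.29) a positive one, none of which passed.

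Of 11 tested genes of AU-rich mRNA decay and JUN or FOS protein turnover, 0 were called higher and 1 lower. This was *Hnrnpd*, which encodes the AU-rich element binding protein AUF1. *Hnrnpd* had 21682, 19088 and 17522 normalized counts in WT and 12800, 12337 and 11707 in hnRNPL-deficient libraries (log2 fold change -0.66, SE 0.106, adjusted p = 0.00703 by limma). Its call was lost without WT library 1 and with quantile normalization, where the change was under 1.5-fold.

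Of 10 tested genes commonly listed as AP-1 targets, 4 were called higher and 1 lower, against 7.28% and 4.08% of all genes. *Csf2*, the gene of the cytokine GM-CSF, rose from 16.2, 4.32 and 3.06 normalized counts in WT to 139.7, 82.8 and 196.0 (log2 fold change 4.20, SE 0.573, adjusted p = 0.00358 by limma). *Ptgs2*, which encodes cyclooxygenase 2, rose from 16.3 ± 4.54 to 120.0 ± 4.28 (2.84, SE 0.288, adjusted p = 0.00105). *Il6* rose from 465 ± 130 to 1447 ± 452 (1.62, SE 0.273, adjusted p = 0.00855), and its groups did not overlap. *Vim*, the vimentin gene, was higher at 0.66 (adjusted p = 0.0362) and *Plaur*, the urokinase receptor gene, lower at -0.79 (adjusted p = 0.0787). Both calls by limma were lost when WT library 2 or 3, or hnRNPL-deficient library 1, was left out, and *Plaur* also lost its call without hnRNPL-deficient library 3, with equal totals and with no mean-variance trend. *Tnf*, the gene of tumour necrosis factor, passed the adjusted p below 1.5-fold, with 3553, 3994 and 3894 normalized counts in WT and 2484, 2684 and 2638 in hnRNPL-deficient libraries (log2 fold change -0.55, SE 0.0956, adjusted p = 0.00949 by limma). The listed targets thus moved in both directions, and the part of AP-1 in their values was not tested.

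Of 4 tested genes commonly listed as BATF targets, 2 were called higher and 1 lower, against the same 7.28% and 4.08%. *Ctla4*, an inhibitory receptor gene, was higher, with a log2 fold change of 1.21 (adjusted p = 0.0313 by limma), with no call without WT library 3 or hnRNPL-deficient library 2. *Bcl6*, the germinal centre repressor gene, rose from 1641 ± 179 to 2557 ± 159 (0.64, adjusted p = 0.0111 by limma), with no call without WT library 1. *Il10*, a regulatory cytokine gene, fell from 316 ± 119 to 125.7 ± 27.7 (-1.28, SE 0.290, adjusted p = 0.0262 by limma).

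**Figure D4:**
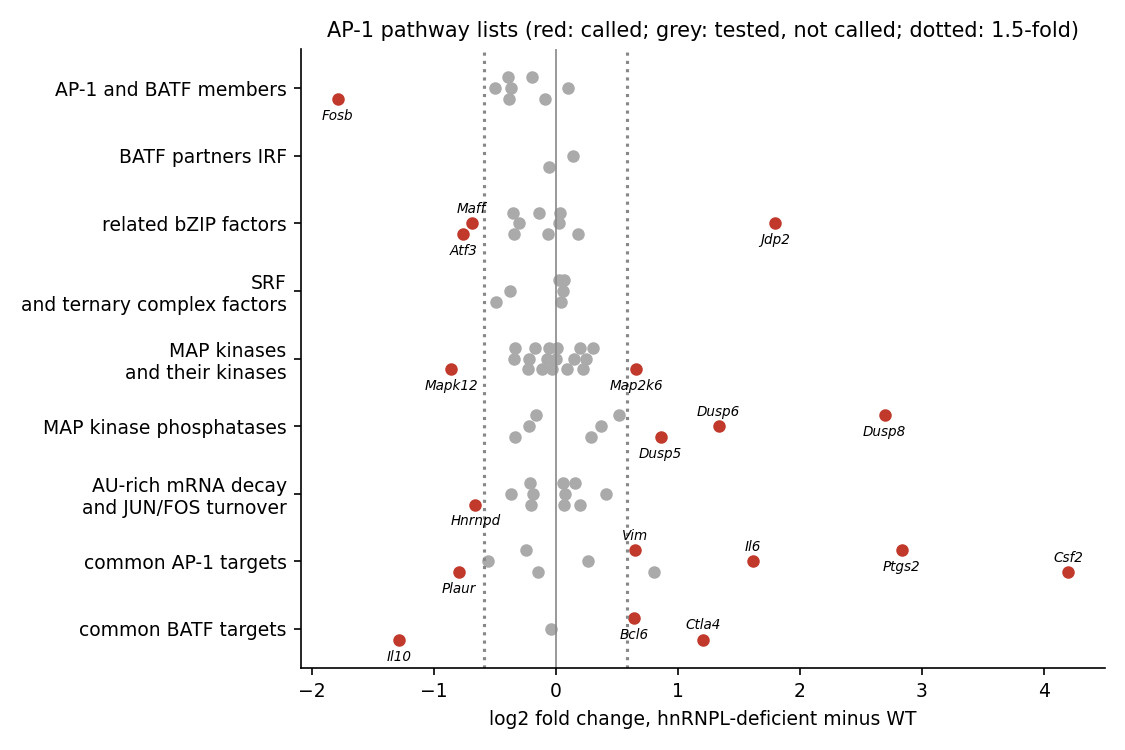
Log2 fold change (horizontal axis, hnRNPL-deficient minus WT) of each tested gene in the member list and the 8 pathway lists (rows). Red points are called genes with their names, grey points were tested and not called, and dotted lines mark 1.5-fold. *Fosb* stands alone at -1.78 in the member row, and *Csf2* at 4.20 is the point farthest to the right.

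Markers of other cells and of handling moved with the groups in part. The 6 macrophage and monocyte markers summed to between 275 and 345 normalized counts in WT and between 1259 and 1395 in hnRNPL-deficient libraries. Nearly all of this was *Adgre1* (F4/80), which rose from 278 ± 39.9 to 1308 ± 80.1, while *Lyz2*, *Csf1r* and *Fcgr1* were under 10 normalized counts in every library. Of 6 dendritic cell markers 3 were at 0 in all libraries (*Itgax*, *Clec9a* and *Siglech*), and their sum was 648 to 787 in WT and 637 to 685 in hnRNPL-deficient libraries. *Xcr1* of that list was called higher, at 8.12, 9.51 and 9.18 normalized counts in WT and 21.6, 24.2 and 27.4 in hnRNPL-deficient libraries (log2 fold change 1.35, adjusted p = 0.0370 by limma). The 5 plasma cell markers summed to 33957 to 39571 in WT and 33296 to 36361 in hnRNPL-deficient libraries. Nearly all of this was *Irf4* (mean 20349 in WT and 19338 in hnRNPL-deficient libraries) and *Xbp1* (13882 and 13488). Among the 5 markers *Jchain*, the immunoglobulin joining chain gene, was called lower, at 117.2, 108.9 and 26.0 in WT and 23.4, 7.07 and 13.7 in hnRNPL-deficient libraries (log2 fold change -2.31, adjusted p = 0.0509 by limma). Of 9 tested heat shock and early response genes 1 was called higher (*Btg2*, log2 fold change 0.74, adjusted p = 0.0198 by limma) and 1 lower (*Hsph1*, -0.68, adjusted p = 0.0168). The sum of that list was 21534 to 24216 in WT and 17622 to 21150 in hnRNPL-deficient libraries. The median log2 fold change of the 9 was -0.39. The tested heat shock genes all had negative values, -0.36 for *Hspa1a*, -0.59 for *Hspa1b* and -0.39 for *Dnajb1* besides *Hsph1*, and of the first 3 only *Dnajb1* passed the adjusted p below 1.5-fold (adjusted p = 0.0770 by limma). Of the other early genes, *Ier2* (-0.50, adjusted p = 0.143) and *Ier3* (-0.66, adjusted p = 0.271) had negative values and *Nr4a1* (0.37, adjusted p = 0.365) a positive one, none of which passed by limma. *Egr1* passed the adjusted p below 1.5-fold with a positive value (0.37, adjusted p = 0.0810 by limma). The part of other cells or of handling in the values of *Fosb* and *Batf* was not tested.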

How the data were processed

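Poly(A) RNA was sequenced in 3 WT and 3 hnRNPL-deficient libraries. The authors trimmed reads (fastp 0.23.1), aligned them to mm10 (STAR 2.7.9a), counted them by strand over genes (featureCounts) and deposited the counts divided by DESeq2 1.38.2 size factors, a signal called normalized counts here. The deposited table also holds the authors' own comparison columns, which were not used. Groups follow the labels. All values of a library were whole multiples of its smallest value, so reads were recovered. For hnRNPL-deficient library 2 the automatic check could not accept this, and its reads entered no count test.

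The test used here was limma 3.58.1 (R 4.3.3) with its trend option on log2(normalized count + 1), over 17640 genes whose mean was 10 or more, with Benjamini-Hochberg adjustment over all of them. Fold changes are on that scale, which understates the change of low genes. Genes were called at an adjusted p under 0.1 and at least 1.5-fold. Alternatives were pseudocounts of 0.5 and 5, no filter and a mean of at least 50, equal totals, quantile normalization, no trend, a replicate block, an *Xist* covariate, other thresholds, leaving out each library, and edgeR 4.0.16 and DESeq2 1.42.0 on the reads of 5 libraries. The main limma fit, edgeR and DESeq2 were tried on simulated data. The genes changed there all had a higher mean than *Fosb*. Coordinates and exon lengths come from GENCODE on GRCm38 and promoters from RefSeq. The members and gene lists were chosen with earlier results of these data known. All members were named, with every called gene of the pathway lists, *Irf4* and *Irf8*. More pathway genes passed the adjusted p below 1.5-fold than are named. *Srf*, *Elk3*, *Tnf* and the phosphatases that were not called were added after their values were seen. The searches for TGACG and TATAA were also added then. Of the genes first listed, 1 is not reported here.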

Additional observations from a re-analysis of the deposited data

How the results depend on the processing

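No member was called higher under any alternative. The members called lower numbered 2 with no minimum fold, and from 0 to 1 over the fits that left out a library. Of all genes, 610 were called higher and 216 lower at an adjusted p under 0.05 and 2-fold, 1406 were lower with no minimum fold, and leaving out a library gave 850 to 1124 higher and 483 to 695 lower genes. Of the pathway genes, 6 were higher and 1 lower at the stricter threshold, 13 lower with no minimum fold, and 8 to 10 higher and 3 to 5 lower when a library was left out. The log2 fold change of *Jund* turned to 0.0755 with quantile normalization and ranged from -0.179 to 0.0572 over the libraries left out (positive without hnRNPL-deficient library 3), and that of *Jun* from -0.0193 (without hnRNPL-deficient library 1) to 0.289. The cause was not tested. The other settings kept the sign of every tested member. Same-numbered libraries of the 2 groups had correlations of deviations of 0.43, 0.32 and 0.07 over 17640 genes. The labels do not say that the numbers mark pairs, and the main fit did not pair them. With the replicate block 1755 genes were higher and 1018 lower, and *Fosb* was the member called lower (adjusted p = 0.00271 from limma). WT library 1 and 2 correlated best with their own number and WT library 3 with hnRNPL-deficient library 2. Each hnRNPL-deficient library correlated best with the WT library of its own number. For hnRNPL-deficient library 2 this was by little (0.32, against 0.31 with WT library 3), as for library 3 (0.07, against 0.05 with WT library 1). Whether the libraries are pairs was thus not settled. Depth limits *Batf3* and *Fosl2* most. *Fosb* (25 to 291 reads) and *Fos* (51 to 196 reads) were also low in the 5 libraries with recovered reads. The 3 mice per group limit the precision of all members, *Fosb* with its wide WT spread among them.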

Other observations

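Of the 13881 genes whose mean was 50 normalized counts or more, the 3 whose log2 values followed *Fosb* most closely over the 6 libraries were *2700038G22Rik* (Pearson r = 0.997), *Rabepk* (r = 0.992) and *Tgif1* (r = 0.991). With 6 points that share their libraries and depth this is a description, and the highest of 13881 values is high by selection. Their changes were much smaller than that of *Fosb*. *Tgif1*, a homeobox repressor gene, had 4393, 4959 and 5026 normalized counts in WT and 3805, 4354 and 4219 in hnRNPL-deficient libraries. *2700038G22Rik*, an uncharacterised gene, had 851, 1051 and 1156 in WT and 604, 830 and 759 in hnRNPL-deficient libraries.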
